A study of Mus musculus with 598 samples.

Results

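The 7 genes described here are those by which mouse primordial germ cells, the founders of eggs and sperm, are usually recognised: Prdm1, Prdm14, Tfap2c, Dppa3, Nanos3, Ifitm1 and Ifitm3. They were chosen by name, and all 7 were found among the 40912 genes counted in single cells that carry a reporter of Mesp1. Ifitm1 was the abundant one, 4.50-fold lower in knockout than in wild type at E6.75. It was 2.63-fold and 4.25-fold higher at E7.25 than at E6.75 within the 2 sets of libraries. Prdm14 and Tfap2c were read in an appreciable share of cells at E6.75 and were lower at E7.25 within both sets. Among cells of library set 1 without reads of Y-linked genes, however, Prdm14 was low at both stages (0.476 and 0.18 reads per 1000000). Dppa3 and Nanos3, the genes most particular to germ cells after their specification, stayed under 1 read per 1000000 in every group. No cell had all 5 of Prdm1, Prdm14, Tfap2c, Dppa3 and Nanos3, and no cell at E7.25 had 3 of them.

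The study sequenced mouse embryo cells during gastrulation, sorted for green fluorescence (GFP) from Mesp1, a gene of the earliest mesoderm, with the aim of following how cardiovascular lineages part. Per the labels, 28.8% of the 598 cells were wild type at E6.75 (embryonic days counted from fertilisation), 85 cells were knockout at E6.75 and 57.02% were wild type at E7.25, and every cell was Mesp1-GFP+. The labels name no knocked-out gene, no strain of the embryos and no construct behind the reporter. They name no embryo, litter or pool either, so each group counts as 1 sample, no test was run, and all 95% intervals (exact Poisson for reads, Clopper-Pearson for shares of cells) cover counting error only.

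In the mouse, a few cells of the posterior proximal epiblast become germ cells in answer to BMP4 from the extraembryonic ectoderm, with WNT3 making them able to respond. Prdm1 (Blimp1) represses the somatic programme, Prdm14 restores pluripotency genes and removes DNA methylation, and Tfap2c (AP-2 gamma) acts downstream of Prdm1. Dppa3 (Stella) and Nanos3 mark the founders once they are set aside, and Ifitm3 (Fragilis) and Ifitm1 are interferon-induced membrane proteins of the competent region. None is read in germ cells alone: Prdm1 is also known in endoderm, Prdm14 in pluripotent cells, Tfap2c in extraembryonic ectoderm, and Ifitm1 in mesoderm of the streak.

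Mesp1 itself was checked first. Summed reads per group, given per 1000000 reads on all genes (CPM), came to 406 CPM in wild type and 7.40 CPM in knockout cells of library set 1 at E6.75, 54.8-fold lower (51.2 to 58.8). Cells held between 101895 and 14159574 reads (median 1218375). The data also divide into 2 library sets, absent from the labels, told apart by reads of 8 genes seldom read in set 2. Set 1 has 83 wild type and all 85 knockout cells of E6.75 and 28.9% of all cells from E7.25, and set 2 has 89 wild type cells of E6.75 and 28.1% of all cells from E7.25. Ratios were therefore taken within a set, and knockout could be compared within set 1 only. In set 1, 53 wild type and 49 knockout cells at E6.75 and 95 cells at E7.25 (78 did not) had reads of Y-linked genes, against 0 cells in set 2, so embryo and group cannot be told apart. Here and below, a cell was counted as having Y-linked reads when its Y-linked genes summed to more than 3 CPM. Bone marrow genes, listed because the protocol text speaks of bone marrow, had median sums per cell of 0 to 2.72 CPM, against 562 to 3214 CPM for primitive streak genes.

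Prdm1, the repressor of the somatic programme (ENSMUSG00000038151, minus strand of chromosome 10, 44437177 to 44528501 on GRCm38), was low throughout. At E6.75 it had 2.32 CPM (220 reads) in wild type and 0.360 CPM (41 reads) in knockout cells of set 1, and at E7.25 it had 2.33 CPM (432 reads). In set 2 it had 3.44 CPM at E6.75 and 1.41 CPM at E7.25. A read was present in 16 of 83 and 15 of 85 cells at E6.75 and in 36 cells (20.8%) at E7.25 of set 1, so the knockout had a lower summed level but a similar share of cells, 17.6% against 19.3%.

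Single cells made up much of that level. Of the 83 wild type cells of set 1 at E6.75, 1 gave 50.9% of the Prdm1 reads, at 154.7 CPM. Its haemato-endothelial genes summed to 1379.8 CPM against a median of 94.4 CPM over its group. Etv2 (1052.5 CPM) and Kdr (323.2 CPM) made up nearly all of that sum, and Tal1, Gata1 and Itga2b were at 0. At E7.25 in set 1, 1 cell gave 61.3% of the Prdm1 reads, at 245.3 CPM, with Sox17 at 722 CPM and Cer1 at 3733.5 CPM, genes of endoderm. At E7.25 in set 2, the cell giving most reads had 71.9 CPM and extraembryonic mesoderm genes summing to 1119.8 CPM against a median of 64.98 CPM. Of the 2 knockout cells with the most reads (13 each), the one at 19.99 CPM had nascent mesoderm genes at 1053.3 against a median of 342.5 CPM. The same cell had Dppa3 at 9.226, the germ cell gene Dnd1 at 41.52 and visceral endoderm genes at 86.11 CPM, all above the group's medians. Its Prdm14, Tfap2c, Nanos3 and Ifitm3 were at 0. Its definitive endoderm and axial genes lay near the group's median (101.5 against 107.7 CPM). The top cell of set 2 at E6.75, at 48.9 CPM, lay near its group's medians for haemato-endothelial (65.6 against 69.5 CPM) and endoderm and axial genes (106.2 against 91.4 CPM). These companion genes and lists were chosen after their values were seen.

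With 1 CPM added to both groups, the log2 ratio of Prdm1, knockout minus wild type, was -1.29 (6.45-fold lower before the addition, 4.61 to 9.24). Without the top cell of each group it was -0.78, short of the 2-fold line. Between the stages the log2 ratio was 0.00 in set 1 and -0.88 in set 2. Without the top cell of each group the value of set 1 was -0.17, and with each cell weighted equally it was -1.06.

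Prdm14, the germ cell and pluripotency regulator (ENSMUSG00000042414, minus strand of chromosome 1, 13113457 to 13127163), had 11 CPM in wild type and 27.6 CPM in knockout cells of set 1 at E6.75, and 0.269 CPM at E7.25. In set 2 it had 14.7 CPM at E6.75 and 1.16 CPM at E7.25. Both sets thus showed a level of 10 CPM or more at E6.75 and one near or under 1 CPM at E7.25.

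Prdm14 was read in 23 of 83 wild type cells (27.7%), in 44 of 85 knockout cells (51.8%) and in 4 cells at E7.25 (2.31%) of set 1. In set 2 it was read in 34 of 89 cells (38.2%) and 11 cells at E7.25 (6.55%). Depth differed between groups, so each cell was also thinned at random to 100000 reads. The shares were then 12.0%, 37.6% and 1.73% in set 1, and 29.2% and 3.57% in set 2, in the same order. The stage ratios were log2 -3.24 in set 1 (40.8-fold lower, 30.7 to 55.4) and -2.86 in set 2 (12.7-fold lower, 11.4 to 14.1).

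The knockout ratio of Prdm14 was 1.25 on the log2 scale (2.51-fold higher, 2.34 to 2.70), and it differed between cells with and without Y-linked reads. Among cells with Y-linked reads, wild type had 16.8 CPM (20 of 53 cells with a read) and knockout 22.8 CPM (30 of 49 cells), a log2 ratio of 0.42. Among cells without them, wild type had 0.476 CPM (3 of 30 cells, 16 reads) and knockout 36.8 CPM (14 of 36 cells), a log2 ratio of 4.68. The difference was past 2-fold only among cells without Y-linked reads, where the wild type level was close to that of E7.25. The knockout cells were above the wild type cells in both splits. With both sets pooled the log2 ratio was 0.999, marginally under the 2-fold line, and part of the stage ratio moved with the same split: -3.73 with and -0.32 without Y-linked reads.

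Tfap2c, the AP-2 gamma transcription factor (ENSMUSG00000028640, plus strand of chromosome 2, 172549593 to 172558622), followed the same order. It had 9.10 CPM in wild type and 14.9 CPM in knockout cells of set 1 at E6.75, and 0.948 CPM at E7.25, with 16.4 and 5.76 CPM at the 2 stages of set 2. It was read in 49.4% of wild type and 68.2% of knockout cells, and in 26.6% of cells at E7.25, which became 27.7%, 48.2% and 6.94% after thinning. In set 2 the shares were 65.2% and 32.7%, or 44.9% and 17.3% after thinning. More cells held Tfap2c than held Prdm14 in every group.

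Tfap2c was 9.60-fold lower at E7.25 than at E6.75 in set 1 (8.15 to 11.4; log2 -2.37) and 2.85-fold lower in set 2 (2.69 to 3.02; log2 -1.36). With 10 CPM added in place of 1 CPM, which shrinks low genes, these ratios were -0.80 and -0.74, within 2-fold. The knockout ratio was 0.66 (1.64-fold higher, 1.51 to 1.78), within the 2-fold line, and was 0.25 among cells with and 1.40 among cells without Y-linked reads. With both sets pooled it was 0.11.

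**Figure D1:**
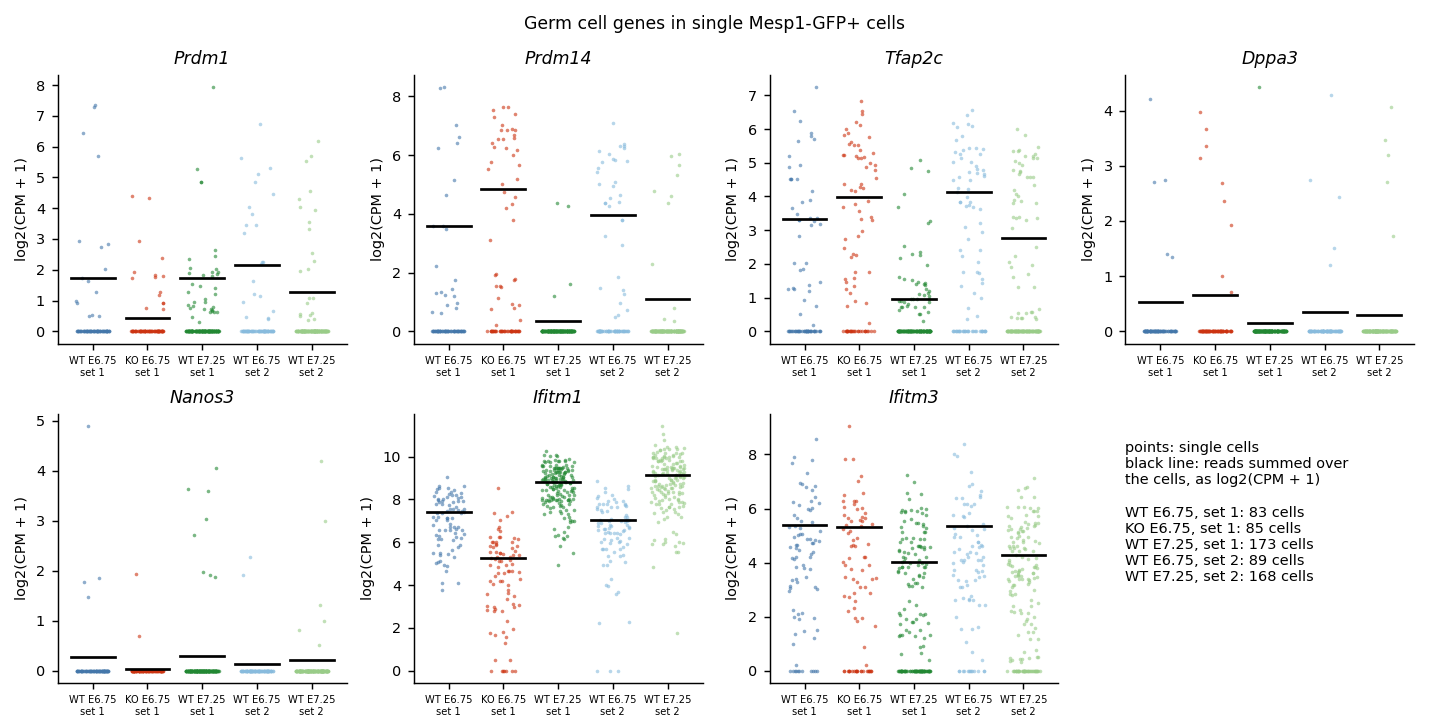
Level of each of the 7 genes in each cell as log2(CPM + 1), by stage, genotype and library set; points are cells and black lines are the reads summed over a group. Ifitm1 is read in nearly every cell, with the knockout cells low and the E7.25 cells high, while Dppa3 and Nanos3 are at 0 in nearly all.

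Dppa3, the maternal-effect protein that marks founders of the germ line (ENSMUSG00000046323, plus strand of chromosome 6, 122626410 to 122630272), had 0.444 CPM (42 reads) in wild type and 0.580 CPM (66 reads) in knockout cells of set 1 at E6.75. It had 0.113 CPM (21 reads) at E7.25 in set 1, and 0.273 and 0.231 CPM at the 2 stages of set 2. A read was present in 5, 9 and 1 cells of set 1 and in 5 and 5 cells of set 2. All 21 reads of E7.25 in set 1 lay in 1 cell, at 20.6 CPM, which had 2.94 CPM of Nanos3, 40.15 CPM of Ifitm3 and 69.5 CPM of Dnd1, an RNA-binding protein of germ cells, with Prdm1, Prdm14, Tfap2c and Nanog at 0 and Mesp1 at 300.7 CPM. In 3 of the other 4 groups the cell giving most Dppa3 reads had Dnd1 at 0. Of the 50-base stretches of Dppa3 transcripts, 16.5% also occur in other genes, its pseudogene copy among them, so the origin of these few reads is uncertain.

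Nanos3, the RNA-binding protein that keeps germ cells alive (ENSMUSG00000056155, minus strand of chromosome 8, 84173731 to 84185217), was the lowest of the 7 in every group but E7.25 of set 1, where Dppa3 was lower. It had 19 reads in wild type and 2 reads in knockout cells of set 1 at E6.75, 0.201 and 0.0176 CPM, a ratio of 0.0876 with a counting interval of 0.00989 to 0.363. With 1 CPM added the log2 ratio was -0.24, within 2-fold. A read was present in 4 of 83 wild type and 2 of 85 knockout cells, and 3 cells gave 94.7% of the wild type reads. Nanos3 had 0.226 CPM at E7.25 in set 1, and 0.0929 and 0.166 CPM at the 2 stages of set 2. No more than 8 cells of any group had a read. At E7.25 in set 2, 1 cell gave 42 of the 61 reads, and it had 313.9 CPM of Kdr and 742 CPM of cardiac progenitor genes against a median of 96.0 CPM. Neither gene reached 1 CPM in any group, so neither entered the counts of genes called.

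Each group was read against all genes. At E6.75 within set 1, 669 of 13934 genes (4.8%) were at least 2-fold higher and 1065 (7.64%) at least 2-fold lower in knockout cells. Of the 5 members measured, 1 was higher (Prdm14), 2 were lower (Prdm1, Ifitm1) and 2 lay between (Tfap2c, Ifitm3). Between stages within set 1, 7.84% of 14127 genes were at least 2-fold higher and 4.73% at least 2-fold lower at E7.25, with 1 member higher (Ifitm1), 3 lower (Prdm14, Tfap2c, Ifitm3) and Prdm1 between. Within set 2 these shares were 6.12% and 2.6% of 14260 genes, with the members called as in set 1. There Ifitm3, at log2 -1.06, lay close to the line and was past it in 5 of 9 other settings. Over both sets pooled, 2.74% of 14014 genes were higher and 9.13% lower in knockout, with 0 of the 5 members higher and Prdm1 and Ifitm1 lower. Pooled between stages, 4.93% of 14217 genes were higher and 2.09% lower, with Ifitm1 higher and Prdm14, Tfap2c and Ifitm3 lower. The knockout and stage comparisons within set 1 share the wild type cells of E6.75. The median log2 ratio over all genes was -0.03, 0.02 and 0.04 in the 3 comparisons.

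**Figure D2:**
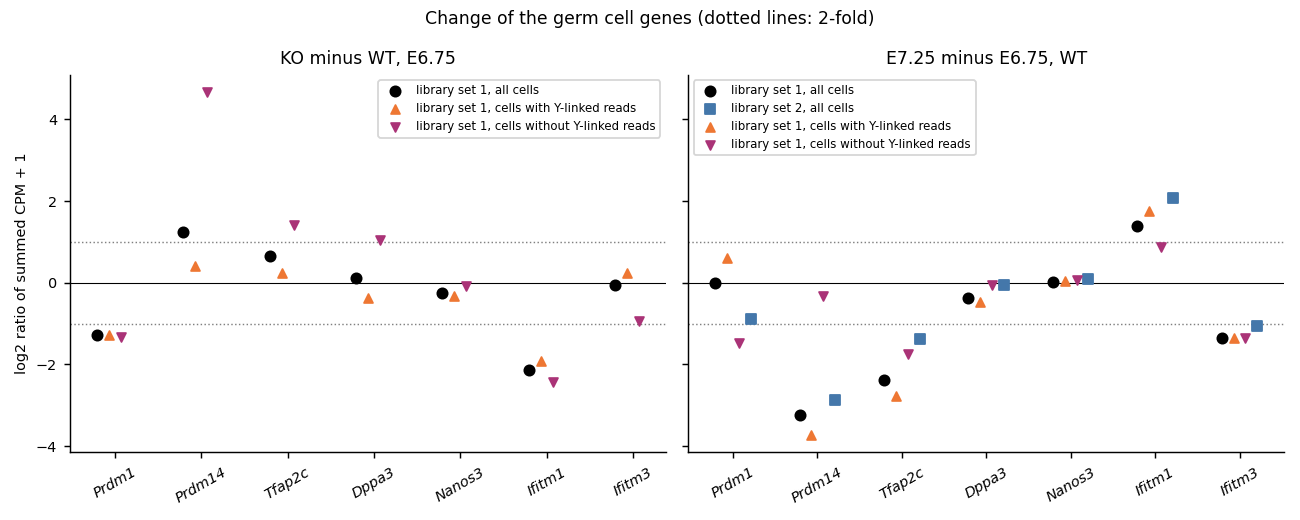
Log2 ratio of summed CPM + 1 for each gene, knockout minus wild type at E6.75 (left) and E7.25 minus E6.75 in wild type (right), for the library sets and for cells with and without Y-linked reads; dotted lines mark 2-fold. Ifitm1 lies on the same side in every version, whereas the knockout ratio of Prdm14 runs from 0.42 to 4.68.

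Ifitm1 and Ifitm3, membrane proteins of the interferon-induced transmembrane family, lie near each other on chromosome 7 with Ifitm2, at 140967221 to 140969825 (plus strand, ENSMUSG00000025491), 141009586 to 141010770 (minus strand, ENSMUSG00000025492) and 140954837 to 140955987 (minus strand). The sequences before their starts are shown because these 3 neighbours did not change alike: between stages Ifitm1 was higher and Ifitm3 lower, while Ifitm2 stayed within 2-fold. They are from RefSeq on GRCm38.p6, 5′ to 3′, limited to bases outside annotated exons. Capitals mark the letters of the interferon-stimulated response element (GAAA, any 2 bases, GAAA), searched on both strands.

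Ifitm1, chr7:140967826-140968027, plus strand: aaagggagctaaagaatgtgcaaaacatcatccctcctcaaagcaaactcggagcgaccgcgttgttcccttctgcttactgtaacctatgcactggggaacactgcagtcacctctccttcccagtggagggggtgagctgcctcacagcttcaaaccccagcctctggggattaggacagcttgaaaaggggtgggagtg
Ifitm2, chr7:140955988-140956211, minus strand: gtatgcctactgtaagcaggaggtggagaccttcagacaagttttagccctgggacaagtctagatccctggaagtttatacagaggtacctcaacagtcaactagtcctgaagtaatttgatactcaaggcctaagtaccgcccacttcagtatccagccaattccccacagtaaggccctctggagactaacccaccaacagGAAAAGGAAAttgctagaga
Ifitm3, chr7:141010771-141010994, minus strand: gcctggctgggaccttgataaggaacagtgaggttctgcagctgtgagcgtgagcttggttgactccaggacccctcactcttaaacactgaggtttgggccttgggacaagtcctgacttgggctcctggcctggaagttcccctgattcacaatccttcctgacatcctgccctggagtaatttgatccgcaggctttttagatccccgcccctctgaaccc

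The element's letters were found in Ifitm2, ending 37 bases before the start, and not in the 250 bases before Ifitm1 or Ifitm3. They occur in 2.98% of 32851 windows of 250 bases before gene starts. Letters of the TCF/LEF (CTTTGAT, 3.21% of windows), AP-2 (GCCNNNGGC, 13.7%) and T-box (TCACACCT, 1.12%) motifs were in none of the 3. The printed Ifitm1 window lies inside the gene's annotated span, between exons.

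Ifitm1 was read in all 83 wild type cells of set 1 at E6.75, where the lowest, median and highest cells had 12.7, 140.3 and 528 CPM. In the 85 knockout cells they had 0, 24.3 and 373 CPM, and in the cells of E7.25 they had 29.3, 438 and 1226 CPM. The 3 groups overlap in their extremes, but the middle of each stands apart. The upper quartile of knockout cells, 53.3 CPM, was under the lower quartile of wild type cells, 70.6 CPM, and the lower quartile at E7.25, 251.9 CPM, was above the upper quartile at E6.75, 244.1 CPM. In set 2 the medians were 99.6 CPM at E6.75 and 506 CPM at E7.25. Per cell, log2(CPM + 1) averaged 6.94 ± 1.22 (SD over 83 cells) in wild type, 4.26 ± 2.06 (85 cells) in knockout and 8.56 ± 0.98 (95 cells with and 78 without Y-linked reads) at E7.25.

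Summed over cells, Ifitm1 had 169.7 CPM in wild type and 37.7 CPM in knockout cells, 4.50-fold lower (4.35 to 4.66; log2 -2.14). It had 446 CPM at E7.25 in set 1, 2.63-fold higher than at E6.75 (2.58 to 2.67; log2 1.39), and in set 2 it had 559 against 131.6 CPM, 4.25-fold higher (4.19 to 4.31; log2 2.08). The knockout ratio was -1.92 among cells with and -2.43 among cells without Y-linked reads. The stage ratio was 1.76 with them and 0.87 without, the latter short of 2-fold, since wild type cells without Y-linked reads already had 224.1 CPM at E6.75. Of the 50-base stretches of Ifitm1 transcripts, 5.02% also occur in Ifitm3 or a pseudogene.

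Ifitm3 was ordered differently. It had 40.5 CPM in wild type and 38.9 CPM in knockout cells of set 1 at E6.75, and 15.2 CPM at E7.25, with 40.1 and 18.7 CPM at the 2 stages of set 2. The median cells had 20.0, 10.1 and 2.52 CPM in set 1 and 16.04 and 9.46 CPM in set 2, and the highest cells 375, 530.0, 149.6, 333.7 and 138.6 CPM in the same order. The groups overlapped almost fully, with fewer high cells at E7.25. After thinning, a read was present in 67.5%, 63.5% and 39.9% of cells of set 1 and in 69.7% and 51.2% of set 2; unthinned, in 86.8%, 72.9%, 60.1%, 85.4% and 76.2%.

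The knockout ratio of Ifitm3 was log2 -0.06 (a ratio of 0.961, 0.920 to 1.004). One knockout cell gave 34.1% of the group's reads, and without the top cells the ratio was -0.38. It was 0.25 among cells with and -0.94 among cells without Y-linked reads. The stage ratio was -1.36 in set 1 (2.67-fold lower, 2.54 to 2.80) and -1.06 in set 2 (2.15-fold lower, 2.08 to 2.22). Leaving out the top cell of each group gave -0.90 in set 2, within 2-fold. Of its 50-base stretches, 10.02% also occur in other genes, pseudogenes among them.

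The third neighbour, Ifitm2, differed little: 159.9 CPM in wild type, 154.6 CPM in knockout and 183.6 CPM at E7.25 in set 1, log2 ratios of -0.05 and 0.20, and 0.47 between stages in set 2. Per kilobase of exon, levels in wild type cells of set 1 at E6.75 were 244.1 for Ifitm2, 155.1 for Ifitm1 and 59.7 for Ifitm3 (CPM per kb). In knockout cells Ifitm1, at 34.5, was the lowest of the 3 in summed reads, under Ifitm3 at 57.3. The median knockout cell had more Ifitm1 (24.3 CPM) than Ifitm3 (10.1 CPM) before scaling by length, and 1 cell gave 34.1% of the knockout Ifitm3 reads. At E7.25 Ifitm1 was the highest, at 408 against 280.3 for Ifitm2 and 22.4 for Ifitm3. The order of the summed levels thus turned between groups. Of the 50-base stretches of Ifitm2, 48.5% also occur elsewhere, which makes its own level uncertain. Ifitm6 had 0 reads in set 1, and Ifitm5 reached 1.34 CPM per kb at most there.

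**Figure D3:**
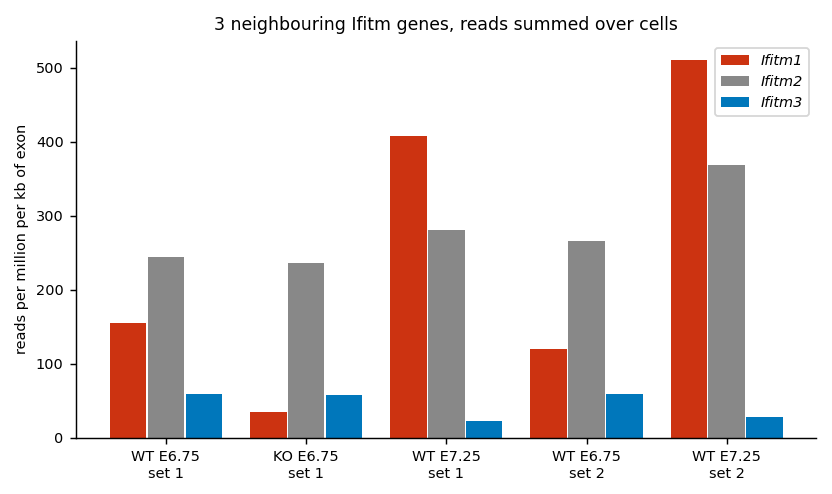
CPM per kilobase of exon, from reads summed over cells, for Ifitm1, Ifitm2 and Ifitm3 in each stage, genotype and library set. Ifitm1 is the lowest of the 3 bars in knockout cells and the highest at E7.25, and Ifitm2 varies least.

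On the same scale the other members were far lower in wild type cells of set 1 at E6.75: Prdm14 had 4.29, Tfap2c 2.47, Dppa3 0.497, Prdm1 0.416 and Nanos3 0.217 CPM per kb. In knockout cells Prdm14 had 10.8 and Tfap2c 4.05 CPM per kb. The counting intervals of the lowest genes are wide, and the order among Dppa3, Prdm1 and Nanos3 rests on few cells. In the wider families, Prdm6, a PR-domain gene of smooth muscle, had 31.9 CPM in wild type and 5.83 CPM in knockout cells, and Nanos1 had 3.95 and 0.650 CPM, while Nanos2 had 0 reads. Of the Prdm family, 1 of 9 measured genes was at least 2-fold higher and 3 lower in knockout, against 4.8% and 7.64% of all genes. The higher one was the member Prdm14, and the 3 lower were the member Prdm1, Prdm6 and Prdm10. Prdm10 changed direction when cells were weighted equally. Tfap2a, the other measured AP-2 gene, had 2.30, 1.89 and 3.29 CPM in the 3 groups of set 1.

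Whether single cells held several of the genes was counted over Prdm1, Prdm14, Tfap2c, Dppa3 and Nanos3. Ifitm1 and Ifitm3 were kept apart, being read in most cells. After thinning to 100000 reads, 3 of 598 cells (0.502%, 0.104 to 1.46) had a read of at least 3 of the 5: 2 knockout cells and 1 wild type cell of set 2, both at E6.75. At E7.25, 0 cells of set 1 had 3, which allows a share of up to 1.73% by the limit of 3 counts (Clopper-Pearson upper bound 2.11%), and 0 cells of set 2, which allows up to 1.79% (2.17%). At full depth, 4 wild type and 13 knockout cells of set 1 and 5 cells of set 2 had 3 or more, all at E6.75. No cell had all 5 at any depth.

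Cells with at least 2 of the 5 were commoner at E6.75. They were 10 of 83 wild type cells (12.0%, 5.93 to 21.04) and 23 of 85 knockout cells (27.1%, 17.99 to 37.8) in set 1, and 18 of 89 (20.2%, 12.4 to 30.1) in set 2. At E7.25 they were 2 cells of set 1 (1.16%, 0.140 to 4.11) and 3 cells of set 2 (1.79%, 0.370 to 5.13). The pair of Prdm14 and Tfap2c was held by 17 of these 23 knockout cells and 11 of the 18 cells of set 2, but by 3 of the 10 wild type cells of set 1, where Tfap2c with Dppa3 was held by 3 as well. In knockout cells 17 of the 32 with Prdm14 (53.1%) had Tfap2c, where 48.2% of all knockout cells had it, so the pair was little commoner than the shares of its genes. In set 2 at E6.75 42.3% of cells with Prdm14 had Tfap2c, against 44.9% of all cells.

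**Figure D4:**
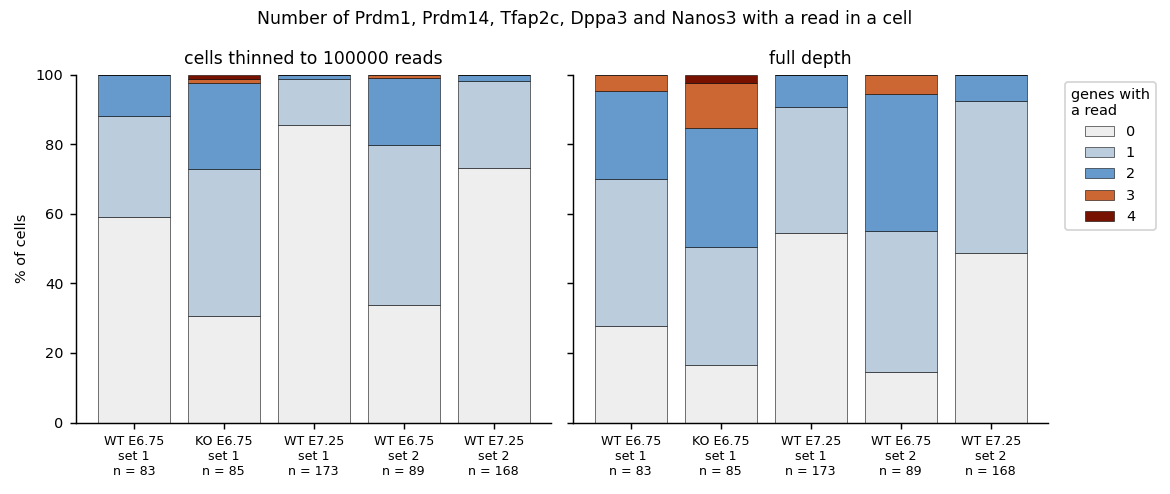
Share of cells with 0 to 4 of Prdm1, Prdm14, Tfap2c, Dppa3 and Nanos3, by group and library set, after thinning to 100000 reads and at full depth. Cells with 2 or more are seen mainly at E6.75 and most in knockout, and none at E7.25 has 3.

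The 3 cells with several genes were described after their values were seen. A knockout cell had 4 of them: Prdm14 (88 reads), Tfap2c (20 reads), Prdm1 (13 reads) and Dppa3 (10 reads, 14.7 CPM), with Nanos3 at 0. It had Nanog at 96.8 and Ifitm3 at 64.5 CPM, Hoxb1, Hand1 and Tbx6 at 0, and 5091 CPM of the streak gene Mixl1, but no Sox2 and only 2.93 CPM of Dnd1. A wild type cell of set 2 had Tfap2c at 84.3, Prdm1 at 28.1 and Prdm14 at 19.99 CPM, with Ifitm3 at 164.3, Dnd1 at 65.6, Alpl at 65.6 and Nanog at 83.7 CPM. That cell held the somatic genes Hand1, Hoxb1 (62.5 CPM) and Mesp1 (1035.7 CPM) as well, and it had no Dppa3 or Nanos3. The third, a knockout cell, had Prdm14 at 101.7 and Tfap2c at 16.95 CPM, 1 read each of Dppa3 and Nanos3, and no Ifitm3, Hoxb1, Hand1, Sox2 or Dnd1, with 2810.6 CPM of Mixl1.

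Clusters of cells within each group, made without the 7 genes, showed where each was read. Wild type levels here and in the next paragraph sum reads over both library sets. The sets were unevenly spread over the clusters, so differences between clusters cannot be told apart from differences between sets. At E7.25, Ifitm1 was highest in the presomitic and paraxial mesoderm-like clusters (767 CPM in 58 cells, 689 CPM in 34 cells) and in an unnamed cluster of 25 cells (741 CPM). It had 343 CPM in the extraembryonic mesoderm-like cluster (41 cells) and 156.8 CPM in the definitive endoderm and axial-like cluster (23 cells). Prdm1 had 8.60 CPM in the endoderm and axial-like cluster (5 of 23 cells with a read) and 4.51 CPM in a cluster of 27 cells led by Tbx3 and Kdr, but without the 1 cell giving most reads these were 2.16 and 1.12 CPM. Tfap2c was at 11.7 CPM and Ifitm3 at 39.2 CPM in the larger paraxial-like cluster, near the 13.7 and 40.2 CPM that Tfap2c and Ifitm3 had over all wild type cells at E6.75, both sets pooled. That cluster had 20 cells of set 1 and 38 of set 2. Over all cells at E7.25, Tfap2c had 0.948 CPM in set 1 and 5.76 CPM in set 2.

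At E6.75 in wild type, Ifitm1 was again low, at 82.5 CPM, in the definitive endoderm and axial-like cluster (31 cells), and Prdm1 was at 9.94 CPM in the haemato-endothelial-like cluster (13 cells; 4.39 CPM without its top cell) and at 8.31 CPM in an unnamed cluster of 19 cells (3.53 CPM without). Ifitm3 was at 76.8 CPM in an unnamed cluster of 36 cells led by Il1r2, Nrbp2, Irgm1, Psmb8 and Parp12, several of them interferon-induced, where Tfap2c was at 20.1 and Prdm14 at 17.2 CPM. Prdm14 lay between 8.99 and 17.2 CPM over the 7 clusters, and between 0 and 14.7 CPM without the top cell of each. In knockout cells, an unnamed cluster of 11 cells led by Utf1 had Prdm14 at 5.51 and Tfap2c at 3.86 CPM, under the other 4 clusters, where Prdm14 had 20.2 to 56.3 CPM. Without top cells Prdm14 and Tfap2c were each at 2.07 CPM there, and Prdm14 at 6.72 to 41.7 CPM in the other 4. Ifitm3 had 73.3 CPM in that cluster and 34.98 CPM without its top cell. Summed over cells, Ifitm1 lay between 24.6 and 46.6 CPM in the 5 knockout clusters. Its median cell had 54.8 CPM in the cluster led by Utf1 and 15.5 to 35.6 CPM in the other 4.

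**Figure D5:**
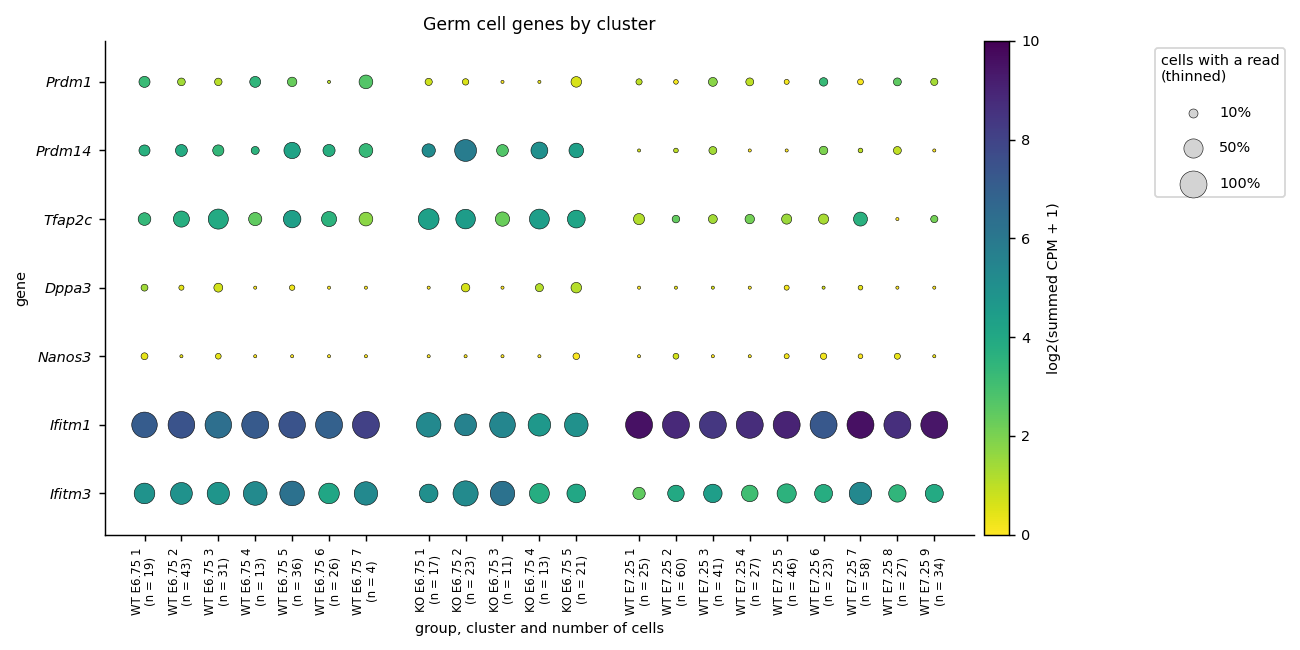
The 7 genes by cluster within each group; dot size is the share of thinned cells with a read and colour is log2 of summed CPM + 1. Ifitm1 is broad in every cluster of wild type cells, and Dppa3 and Nanos3 are sparse in all.

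Across cells within a group and library set, likeness could be ranked for Prdm14, Tfap2c, Ifitm1 and Ifitm3. Prdm1, Dppa3 and Nanos3 had a read in too few thinned cells. Mean Pearson correlations of log2(CPM + 1) after thinning, a description over cells that share library and depth, were highest for Ifitm1 with Hint1 (0.34), Rps27l (0.32) and Fkbp3 (0.31) over 598 cells in the 5 groups and sets. For Ifitm3 they were highest with Igfbp3 (0.29), Psmb10 (0.24) and Tceal8 (0.23). For Prdm14, over 83, 85 and 89 cells of E6.75, the leading genes were Appl1 (0.26), Ism2 (0.24) and Dsp (0.24), and for Tfap2c over 425 cells in 4 of them AW209491 (0.20), Sp8 (0.20) and Gdpgp1 (0.19). Between members, Ifitm1 and Ifitm3 had 0.15, and Prdm14 and Tfap2c 0.05. Such weak values in sparse counts are no finding.

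The wider germ cell programme was read from lists. Over all genes, 4.8% were at least 2-fold higher and 7.64% lower in knockout, 7.84% and 4.73% between stages in set 1, and 6.12% and 2.6% in set 2. Of 11 measured pluripotency genes shared with germ cells, 3 were at least 2-fold higher and 1 lower in knockout at E6.75 (median log2 0.31). Utf1, an epiblast chromatin factor, was 21.4-fold higher than the 7.37 CPM of wild type (log2 4.25), and Dppa4 8.63 against 1.31 CPM (2.06), but among cells without Y-linked reads both turned, to -0.86 and -0.69. Between stages in set 1, 2 of 11 were higher and 3 lower (median -0.49). Nanog, the pluripotency factor that germ cells regain, had 13.4 CPM at E7.25 against 92.8 CPM (log2 -2.71), and in set 2 it was lower too (-2.54). Dppa5a, an RNA-binding protein of pluripotent cells, had 8.30 against 48.9 CPM (-2.42) and -2.58 in set 2. These genes were thus lower at E7.25 together with Prdm14 and Tfap2c; Pou5f1, which germ cells keep, had 245.5 against 290.2 CPM.

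Of 9 measured early germ cell genes beyond the 7, 2 were at least 2-fold higher and 2 lower in knockout (median 0.09), among them Cxcr4, the receptor that guides migrating germ cells (-1.71). Dnd1 had 11.8 against 24.3 CPM (-0.98) and Kit, the receptor for stem cell factor, 9.40 against 4.604 CPM (0.89). Between stages 3 of 10 were higher and 1 lower in set 1 (median 0.42), and 2 of 10 higher in set 2 (median -0.14). The endoderm and germ cell gene Sox17 led in set 1 (3.18; 8.245 against 0.0211 CPM), where the highest cell of E7.25 had 722 CPM. In set 2 Sox17 had the opposite direction (-0.58; 4.135 against 6.652 CPM). Later germ cell genes, used as a negative, gave 1 of 7 higher and 0 lower in knockout, and 0 higher and 3 of 7 lower between stages in set 1 (median -0.75), where Mael was at -2.59. In set 2, 0 of 8 were higher and 3 lower (median -0.87). The shares of all genes lower were 4.73% and 2.6% in the 2 sets, so between stages this list did not stay unchanged as a negative would. Chromatin and DNA methylation genes known to be lower in germ cells gave 0 of 6 past 2-fold in any comparison (medians 0.41, 0.42 and 0.08).

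The signals that act on germ cell precursors differed by gene. In knockout, 1 of 14 measured was at least 2-fold higher and 3 lower (median -0.15). Bmp4, the inducing ligand, had 2.92 against 9.30 CPM (log2 -1.39), and Nodal, a ligand of the streak, had 89.4 against 35.6 CPM (1.30). At E7.25 the directions of both were opposite: Bmp4 had 64.1 CPM (2.66) and Nodal 0.814 CPM (-4.34), and in set 2 the log2 ratios were 1.63 and -3.06. Wnt3, which makes the epiblast able to respond, was lower at E7.25 in both sets (-1.34 and -1.63).

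Of 10 measured somatic genes that germ cells repress, 0 were at least 2-fold higher and 6 lower in knockout (median -1.49), against 7.64% of all genes lower. Mesp1 itself, the gene nearly absent in knockout cells, is 1 of these 6. The others included Lefty2 (-3.48), an inhibitor of Nodal, Hand1 (-3.41), a factor of lateral and extraembryonic mesoderm, and Tbx6 (-2.29), a factor of paraxial mesoderm. Lefty2 and Hand1 were more than 2-fold lower among cells with and among cells without Y-linked reads. Between stages 3 of 12 were higher and 2 lower in set 1 (median 0.47), and 6 of 12 higher and 2 lower in set 2 (median 0.79), with Fgf8 at -3.10 and -2.90.

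Since Ifitm genes answer to interferon, 11 other interferon-induced genes were read beside them. In knockout 3 were at least 2-fold higher and 1 lower (median -0.14), with Bst2 at 1.71 and Psmb8 at -1.63, the latter turning to 1.28 among cells without Y-linked reads. Between stages 1 of 11 was higher and 4 lower in set 1 (median -0.60), and 0 of 10 higher and 5 lower in set 2 (median -0.77). Psmb8, an immunoproteasome subunit, had 2.67 against 62.2 CPM (-4.11), and Irf1, an interferon regulatory factor, was at -1.43. Ifitm1 was higher at E7.25 while most of these genes called were lower, as was Ifitm3.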

How the data were processed

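Single cells were sorted on plates and sequenced as Nextera XT libraries on an Illumina HiSeq, per the labels' protocols, whose text otherwise describes bone marrow. The authors deposited raw read counts per gene and cell; reads were aligned with GSNAP to mm10 and counted with HTSeq 0.5.3p3, per the submitters' processing notes. The sources used here give no strand setting or annotation release, and reads carry no molecular identifiers, so duplicates count. Of 40912 genes, 40254 matched GENCODE M21 symbols (GRCm38, the same assembly), and identifiers without one held 0.121% of reads.

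Cells needed 100000 reads and 2000 genes, which removed 0 cells; no doublet caller was run. Library set 1 is the cells with reads of at least 5 of 8 genes (Dusp15, Foxe1, Hoxd13, Kcnk12, Pou3f3, Six3, Sox3, Vax1). Reads were summed per group and set and scaled to CPM; log2 ratios add 1 CPM, which understates low genes. Genes of at least 1 CPM in either group were measured, and those past 2-fold called. Shares used cells thinned to 100000 reads (seed 1). Clusters used 2000 variable genes, 20 components, 15 neighbours and Leiden resolution 1, and were called "like" a type from at least 3 markers. The summing step was tested on simulated data, with a set spread between cells rather than the one in these data. Genes as low as Prdm1 were left out of the simulation, so it does not cover sparse members.

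The members and gene lists were chosen with earlier results of these data known. The rule for named genes takes the 7 members, Mesp1, the 3 genes most like each member, and up to 4 genes of at least 5 CPM with the largest ratios per list (pluripotency, early and later germ cell, signals, somatic, chromatin, interferon, and the Ifitm, Prdm, Tfap2 and Nanos families); other genes were named after their values were seen, and some genes the rule takes are not reported here. Alternatives are in the closing section; the split by Y-linked reads and the cluster levels without a top cell were chosen after seeing the data. Tools were Python 3.11.15, numpy 2.4.6, pandas 2.3.3, scipy 1.17.1, scanpy 1.11.5, igraph 0.11.9 and R 4.3.3, with edgeR 4.0.16 and DESeq2 1.42.0 for scaling factors of alternatives only.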

Additional observations from a re-analysis of the deposited data

How the results depend on the processing

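No paired analysis was possible because the numbers in the labels only name cells, and leaving out a replicate was not possible with 1 sample per group. Of the ratios of the 7 genes past 2-fold, 0 changed sign under any setting tried, the split by Y-linked reads included. Several fell short of 2-fold in some settings or in that split. Ifitm1 was past 2-fold in 9 of 9 settings in each comparison, that split not among them, its knockout log2 ratio lying between -2.17 and -1.91. Among cells without Y-linked reads its stage ratio in set 1 was 0.87, short of 2-fold. Between stages, Prdm14 in both sets and Ifitm3 in set 1 also passed the line in 9 of 9 settings. Tfap2c passed it in 8 of 9 in each set, and Ifitm3 in set 2 in 5 of 9. In knockout, Prdm1 and Prdm14 each passed it in 7 of 9. In the split, Prdm14 was short of it at 0.42 in knockout with Y-linked reads and at -0.32 between stages without them. As shares of all 40912 genes, those at least 2-fold higher and lower in knockout were 1.64% and 2.60% (0.115% and 0.254% with 10 CPM added), those between stages in set 1 were 2.71% and 1.63% (0.403% and 0.196%), and those in set 2 were 2.13% and 0.907% (0.423% and 0.181%). With library sets pooled, 0.939% were higher in knockout, and 1.71% were higher and 0.726% lower at E7.25; pooling moved the median knockout log2 ratio of all genes to -0.12. Cells without Y-linked reads gave 3.99% higher in knockout, and 4.79% higher and 2.79% lower at E7.25. Cells with 3 or more of the 5 genes numbered 22 at full depth, 1 with 2 reads required, 10 thinned to 500000 reads, and 1 to 6 over 10 other seeds, against 3. Resolution 0.5 gave 11 clusters in place of 21, with all knockout cells in 1. Some list genes turned direction in knockout. Weighting cells equally gave Prdm10 0.36 and Psmb8 0.10, and thinning gave 0.47 and 0.16. Klf4 was 0.26 without the top cell; among cells without Y-linked reads Klf4 was 0.62, Psmb8 1.28, Utf1 -0.86 and Dppa4 -0.69. Between stages in set 1, Prdm10 was 0.18 weighted equally, 0.47 thinned, 0.47 without the top cell and 0.44 with Y-linked reads, and Klf4 was 0.10 without the top cell and 0.68 without Y-linked reads. The cause was not tested. Without the top cell of a cluster, an alternative chosen after seeing the data, several cluster levels of Prdm1 and Prdm14 fell by over 1.5 times. Dppa3 and Nanos3 were under 1 CPM in every group.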
